A study of Mus musculus with 6 samples.

Results

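The genes described here are the splicing regulators and RNA-binding motif proteins of mouse fully grown oocytes (FGOs): every gene of the deposited table whose symbol begins with Hnrnp, is Srsf followed by a number, or begins with Rbm followed by a number. The rule took 71 of 24255 gene symbols, of which 20 were Hnrnp, 11 Srsf and 40 Rbm symbols. It read only names, so it also took the antisense transcripts Rbm3os and Rbm46os and the read-through symbol Rbm14-rbm4. RNA-Seq was done on GV-stage FGOs of wild-type (WT) mice and of Lsm14b-KO mice, which were homozygous for Lsm14b tm1a(KOMP)Mbp, a knockout-first, reporter-tagged insertion kept on a C57BL/6J background. The insertion is carried by every cell of the animal and not by the oocyte alone. Each group had 3 libraries, each made from 20 pooled oocytes collected 46 h after 5 IU of PMSG, a hormone that stimulates follicle growth. The age of these mice, and whether the libraries of a group came from separate mice, are not given in the sources used here, so p-values measure the spread between these libraries.

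Pre-mRNA splicing joins exons in the nucleus, and the choice of splice sites is set in large part by proteins that bind the transcript. SR proteins bind exonic enhancers and mostly promote the use of nearby sites, hnRNPs coat nascent RNA and often act against them, and the RBM genes are a mixed class named after the RNA recognition motif, with roles from the spliceosome to RNA decay. FGOs have largely stopped transcription and live on stored mRNA, and LSM14B is a protein of the cytoplasmic ribonucleoprotein particles that hold such mRNA.

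Values are FPKM, fragment counts scaled by transcript length and by a depth for each library, as the authors deposited them. A gene was tested if it reached 1 FPKM in at least 1 library, on log2(FPKM + 1), with limma's moderated test and Benjamini-Hochberg adjustment over all 6398 genes that met this filter. All log2 differences below are Lsm14b-KO minus WT on that scale, which understates the change of genes near or below 1 FPKM. Lsm14b itself was 2.77, 3.98 and 1.72 FPKM in WT and 0, 0 and 0.102 FPKM in Lsm14b-KO libraries, a difference of -1.85 (SE 0.25, limma adjusted p = 0.00380). The exact two-sided permutation test gave p = 0.10, the smallest that 3 against 3 libraries allow.

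The libraries differed in more than genotype. From the FPKM worth of 1 fragment in low genes, the depth by which values were scaled was about 3860000 to 4410000 fragments in WT. It was about 5140000, 7490000 and 8360000 in Lsm14b-KO replicates 1, 2 and 3. This scaling depth need not equal the number of fragments sequenced, which was not estimated. All 15 oocyte markers of a fixed list were tested, and their summed level was 50491 to 62461 FPKM in WT and 33162 to 80636 FPKM in Lsm14b-KO libraries. Most of that sum was Dppa3, at 34582 to 47684 FPKM in WT and 19433 to 63633 FPKM in Lsm14b-KO. Of the 15 markers, 2 rose, Nobox and Padi6, Padi6 with a call that was lost when any library but Lsm14b-KO replicate 1 was left out (limma adjusted p = 0.0551 to 0.132). Of 16 cumulus and granulosa cell markers, 13 stayed under 1 FPKM in every library, Amh, Foxl2, Cyp11a1, Inhba and Inhbb were listed at 0 throughout, and the summed level was 9.89 to 13.5 FPKM in WT and 6.23 to 10.5 FPKM in Lsm14b-KO. Cyp19a1, the aromatase gene, made up most of the granulosa sum in WT, at 8.26 to 11.5 FPKM, and was 3.00 to 5.76 FPKM in Lsm14b-KO. It was the granulosa marker that fell (-0.98, limma adjusted p = 0.0426, and 0.0790 to 0.142 when any library but Lsm14b-KO replicate 1 was left out). Its call was also lost when values were rescaled to TPM (-0.38, limma adjusted p = 0.309) and under quantile normalization (-0.79, limma adjusted p = 0.0831). With no filter it was lost too (limma adjusted p = 0.0889). In all libraries 7 red blood cell genes were listed at 0. The other 2 tested granulosa markers had fitted differences above 0: Fshr, the FSH receptor gene, was 0.852 ± 0.724 FPKM in WT and 1.94 ± 0.129 FPKM in Lsm14b-KO without overlap (SD, n = 3 each, 0.73, limma adjusted p = 0.0923), and Inha differed by 0.38. The untested Kitl was also higher without overlap. The part of scaling depth and of these markers in the results below was not tested. In pooled oocytes, fewer cells of a type and less RNA per cell cannot be told apart.

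Of the 71 genes, 5 passed the test. Rbm3, Rbm8a and Hnrnpa2b1 fell in Lsm14b-KO FGOs, by 2.26, 1.18 and 0.93 on the log2 scale, and Srsf2 and Hnrnph1 rose, by 1.05 and 0.69. Thus 2 of the 39 tested genes rose, where 6.38% of all tested genes did, and 3 fell, where 15.2% of all tested genes did. In either direction 12.8% of the tested splicing regulators passed, below the 21.6% of all tested genes. The groups did not overlap for 12 of the 39 genes with Lsm14b-KO higher (19.1% of all tested genes) and for 8 with Lsm14b-KO lower (26% of all tested genes). Of those higher, Rbm12b2, Rbm44, Srsf1, Srsf4 and Srsf6 reached 1 FPKM in Lsm14b-KO libraries only. Of those lower, Hnrnpa3 reached it in WT libraries only, so the filter had a part in both counts. At an unadjusted p under 0.05, 10 were higher (15.6% of all tested genes) and 5 were lower (23.7% of all tested genes), but 5 of the 10 reached 1 FPKM in Lsm14b-KO libraries only.

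Sequence upstream of the start is shown for those of the 5 genes that the RefSeq promoter table (GRCm38.p6, the build called mm10) lists, since 1 of these genes fell and the others rose. Rbm3 and Rbm8a have no entry. The 250 bases before the start are printed 5′ to 3′ on the gene's own strand, with capitals marking TATAAA, known as the TATA box, CCAAT, which names its own box, and GGGCGG, known as the GC box, on either strand. Hnrnpa2b1 is read from chr6:51469895-51470144 on the minus strand, Hnrnph1 from chr11:50376740-50376989 on the plus strand and Srsf2 from chr11:116853095-116853344 on the minus strand.
Hnrnpa2b1: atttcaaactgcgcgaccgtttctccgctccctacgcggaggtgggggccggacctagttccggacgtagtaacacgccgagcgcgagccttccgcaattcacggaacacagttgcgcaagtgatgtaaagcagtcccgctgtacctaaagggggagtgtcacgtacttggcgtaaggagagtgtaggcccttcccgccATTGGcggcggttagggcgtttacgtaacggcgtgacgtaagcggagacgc
Hnrnph1: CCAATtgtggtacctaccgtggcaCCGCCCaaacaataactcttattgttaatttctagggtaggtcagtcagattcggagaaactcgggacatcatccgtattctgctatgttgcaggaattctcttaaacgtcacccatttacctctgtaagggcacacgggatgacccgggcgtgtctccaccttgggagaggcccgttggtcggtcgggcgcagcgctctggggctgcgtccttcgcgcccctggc
Srsf2: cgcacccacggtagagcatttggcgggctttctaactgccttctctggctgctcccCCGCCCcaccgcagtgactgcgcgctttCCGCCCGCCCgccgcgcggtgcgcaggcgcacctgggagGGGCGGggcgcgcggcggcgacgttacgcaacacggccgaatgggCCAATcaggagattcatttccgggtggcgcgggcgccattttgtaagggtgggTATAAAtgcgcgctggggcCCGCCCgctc
All 3 windows held 1 CCAAT box, which 33.8% of the 32851 promoters of the same length held. Srsf2 alone of the 3 held a TATA box, found in 12.4% of promoters, and it held 5 GC boxes against 1 for Hnrnph1 and 0 for Hnrnpa2b1, where 32.7% of promoters held at least 1. The GC content was 69.6% for Srsf2, 59.6% for Hnrnpa2b1 and 55.6% for Hnrnph1. RefSeq lists 5 starts for Hnrnph1 and 2 for Hnrnpa2b1, and the window shown lies before the outermost of them, which is 729 nt (Hnrnph1) and 49 nt (Hnrnpa2b1) upstream of the start of the annotated transcript used here.

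**Figure D1:**
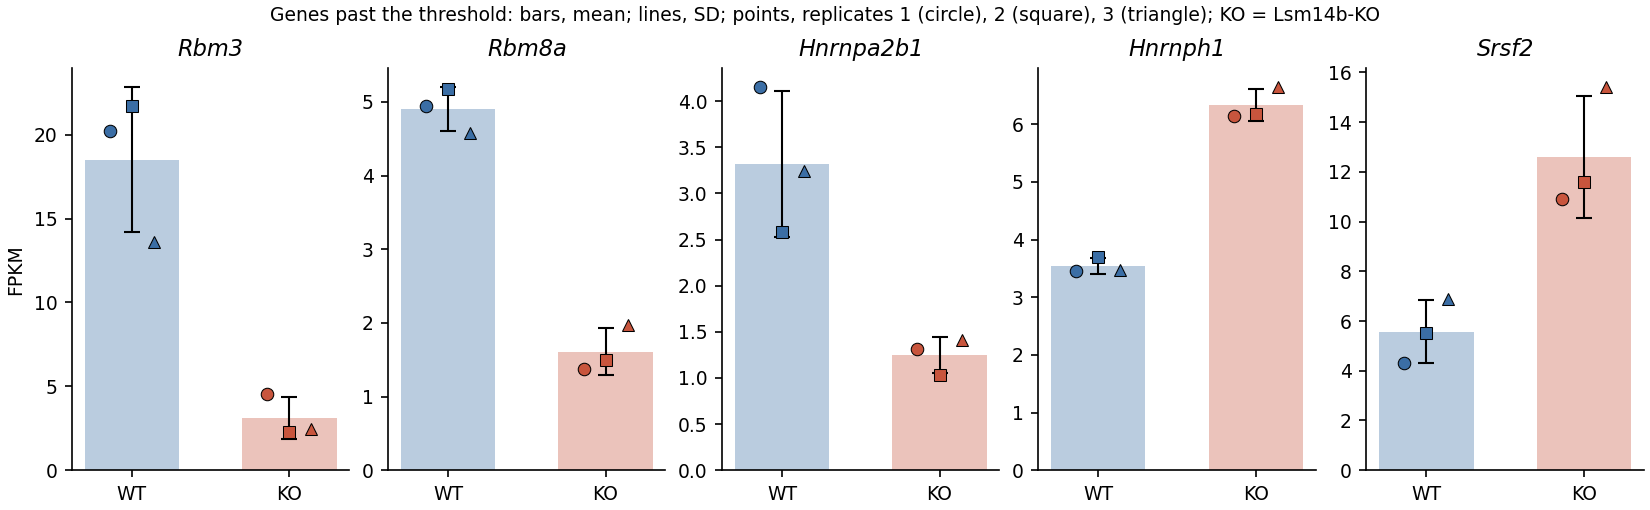
Level in FPKM (linear axis from 0) of the 5 genes that passed the test, with bars for the mean, lines for the SD and points for the 3 libraries of each group. No WT point of any of the 5 genes lies within the Lsm14b-KO range, and Rbm3 shows the widest gap, from 13.6 FPKM in its lowest WT library to 4.56 FPKM in its highest Lsm14b-KO library.

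Rbm3 encodes a cold-inducible RNA-binding protein that is known to favour translation at low temperature. Its level was 20.2, 21.7 and 13.6 FPKM in WT and 4.56, 2.29 and 2.46 FPKM in Lsm14b-KO libraries, so every Lsm14b-KO library was under the lowest WT library. The difference was -2.26 (SE 0.30, 95% interval -2.95 to -1.57, limma adjusted p = 0.00334), and Rbm3 passed under each of the 15 alternative settings. About 140 to 248 fragments lay behind the WT values and 44 to 61 behind the Lsm14b-KO values. The gene lies at chromosome X, 8138975 to 8145880, minus strand. It has 5 near-identical copies elsewhere and overlaps the antisense transcript Rbm3os, which was 0.446, 0 and 0 FPKM in WT and 0, 0.228 and 0 FPKM in Lsm14b-KO. Cirbp, the other classical cold-inducible RNA-binding protein gene, did not pass, with 17.9 ± 1.54 FPKM in WT and 19.6 ± 5.96 FPKM in Lsm14b-KO (SD, n = 3 each, limma adjusted p = 0.830).

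Rbm8a encodes Y14, a core subunit of the exon junction complex, which is left on mRNA upstream of spliced junctions. Its level was 4.94, 5.17 and 4.58 FPKM in WT and 1.37, 1.49 and 1.97 FPKM in Lsm14b-KO libraries. The groups were far apart and each was tight, with a difference of -1.18 (SE 0.19, 95% interval -1.63 to -0.74, limma adjusted p = 0.00668). The gene spans chromosome 3, 96629933 to 96633791, plus strand, and has 1 near-identical copy, Rbm8a2. The call was lost when values were rescaled to TPM (-0.67, limma adjusted p = 0.108), where the median of all tested genes moved from -0.08 to 0.43, and it was kept with each library left out in turn.

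The other subunits of the exon junction complex and the SR-related proteins formed a list of 14 genes, of which 9 were tested. Their median was 0.07, and at an unadjusted p under 0.05, 0 rose (15.6% of all tested genes) and 2 fell (23.7% of all tested genes). By limma adjusted p, 0 of the 9 rose (6.38% of all tested genes) and 1 fell (15.2% of all tested genes). That gene was Magohb, whose product pairs with Y14: it was 53.7, 48.2 and 46 FPKM in WT and 24.0, 3.66 and 9.82 FPKM in Lsm14b-KO libraries (-2.22, SE 0.55, limma adjusted p = 0.0277). Its groups did not overlap, but the call was lost with each WT library left out in turn (limma adjusted p = 0.0982, 0.0873 and 0.0818 without replicates 1, 2 and 3) and without Lsm14b-KO replicate 3 (limma adjusted p = 0.103). The Magohb call was also lost under quantile normalization (-1.85, limma adjusted p = 0.0511) and with no filter (limma adjusted p = 0.0733). Magoh, which encodes a nearly identical protein, was 437, 441 and 416 FPKM in WT and 390, 89.5 and 184 FPKM in Lsm14b-KO libraries and did not pass (-1.21, limma adjusted p = 0.116). Eif4a3, the helicase of the complex, was 2.05 ± 0.676 FPKM in WT and 2.67 ± 1.42 FPKM in Lsm14b-KO (SD, n = 3 each, limma adjusted p = 0.614), and Casc3 stayed under 1 FPKM in every library. Lsm14b-KO replicate 1 was the nearest of its group to WT for both Magoh and Magohb.

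The hnRNP genes had 12 of 20 tested, of which 1 rose (6.38% of all tested genes) and 1 fell (15.2% of all tested genes). Their median was 0.16 against -0.08 for all tested genes. Hnrnpa2b1 encodes a nuclear RNA-binding protein that acts in splicing and in the sorting of RNA for transport. Its level was 4.15, 2.58 and 3.24 FPKM in WT and 1.31, 1.03 and 1.41 FPKM in Lsm14b-KO libraries. All Lsm14b-KO libraries were lower than all WT libraries, with a difference of -0.93 (SE 0.21, 95% interval -1.42 to -0.44, limma adjusted p = 0.0211). Only about 10 to 23 fragments per library lay behind it, and the call was lost without WT replicate 1 (limma adjusted p = 0.0864), without WT replicate 3 (0.0675, limma adjusted p) and without Lsm14b-KO replicate 3 (0.0793, limma adjusted p). It was also lost under TPM scaling (-0.48, limma adjusted p = 0.189), under the length and GC correction (-0.58, limma adjusted p = 0.0753) and with no filter (limma adjusted p = 0.0544). The gene spans chromosome 6, 51460932 to 51469894, minus strand.

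The A/B and D type hnRNPs, of which Hnrnpa2b1 is a member, had 5 genes tested, and the fitted difference was below 0 for all 5 of them, with a median of -0.42. That median rested on single libraries, at -0.24 without WT replicate 1, -0.14 without WT replicate 2 and -0.21 without Lsm14b-KO replicate 1. Under TPM scaling 2 of the 5 lay above 0, while 4 of 5 lay below the median of all tested genes both there and as deposited. Under quantile normalization 1 lay above 0, as 1 did without Lsm14b-KO replicate 1 and 1 without Lsm14b-KO replicate 2. With no filter 1 of 7 lay above 0. At a mean of at least 1 FPKM, 2 of 4 lay below the median of all tested genes and 2 above it. Hnrnpab, an untested gene of this type, overlapped between groups, with 0.306 ± 0.187 FPKM in WT and 0.421 ± 0.0666 FPKM in Lsm14b-KO (SD, n = 3 each). Hnrnpa3 was 1.03, 1.31 and 0.999 FPKM in WT and 0.736, 0.343 and 0.687 FPKM in Lsm14b-KO libraries, groups that did not overlap, but its limma adjusted p was 0.157. Hnrnpa1 varied within a group more than between groups, with 3.76, 4.46 and 0.262 FPKM in WT and 0.194, 2.04 and 2.01 FPKM in Lsm14b-KO. Near-identical copies numbered 28 for Hnrnpa3 and 9 for Hnrnpa1, and how reads were shared among copies is not given in the sources used here, so both levels are uncertain. Hnrnpa0 and Hnrnpdl differed by -0.06 and -0.10, and by 0.39 and 0.46 under TPM scaling.

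The F and H type hnRNPs, which bind runs of G in RNA, had 3 genes tested, all with a fitted difference above 0 as deposited and under each scaling, and a median of 0.69. Hnrnph1 was 3.46, 3.70 and 3.47 FPKM in WT and 6.15, 6.18 and 6.64 FPKM in Lsm14b-KO libraries. The 3 libraries of each group were nearly level and the groups were apart, with a difference of 0.69 (SE 0.19, 95% interval 0.25 to 1.13, limma adjusted p = 0.0386). With so small a margin the call was lost without 5 of the 6 libraries, at limma adjusted p = 0.134, 0.121 and 0.114 without WT replicates 1, 2 and 3 and 0.0590 and 0.133 without Lsm14b-KO replicates 2 and 3. It was kept without Lsm14b-KO replicate 1 (limma adjusted p = 0.0165). The gene lies at chromosome 11, 50376990 to 50386528, plus strand. Hnrnpf was 6.92, 7.33 and 8.50 FPKM in WT and 11.1, 23.4 and 14.6 FPKM in Lsm14b-KO libraries, apart but short of the threshold (0.96, limma adjusted p = 0.0567), and it has 8 near-identical copies. Hnrnph2 overlapped between groups, at 4.40 ± 1.34 and 6.01 ± 2.02 FPKM (SD, n = 3 each).

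Among the remaining hnRNPs, Hnrnpc, whose product packages nascent transcripts, was the most abundant of the family. It was 38.4, 38.3 and 46 FPKM in WT and 54.4, 82.3 and 82.9 FPKM in Lsm14b-KO libraries. The groups did not overlap, yet the difference did not pass (0.80, SE 0.29, limma adjusted p = 0.0836). Hnrnpk, which encodes a poly(C)-binding protein, was 6.03, 5.03 and 6.87 FPKM in WT and 5.00, 24.0 and 17.5 FPKM in Lsm14b-KO libraries (1.02, limma adjusted p = 0.161). Here Lsm14b-KO replicate 1 lay just below the WT range and the other 2 replicates far above it, and without that library Hnrnpk passed (1.63, limma adjusted p = 0.000816). Hnrnpu, a nuclear scaffold protein gene, was 12.1, 8.93 and 11.8 FPKM in WT and 5.00, 10.3 and 9.79 FPKM in Lsm14b-KO libraries, with a difference of -0.40 that turned to 0.24 under TPM scaling. Hnrnpul2 had groups that did not overlap (2.04 ± 0.197 against 3.21 ± 1.15 FPKM, SD, n = 3 each) and a limma adjusted p of 0.194.

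The SR protein genes had 9 of 11 tested, of which 1 rose (6.38% of all tested genes) and 0 fell (15.2% of all tested genes) by limma. Their median was 0.54. At an unadjusted p under 0.05, 4 were higher (15.6% of all tested genes) and 0 lower (23.7% of all tested genes). However, 3 of these 4 (Srsf1, Srsf4 and Srsf6), like Srsf11, met the filter through Lsm14b-KO libraries only, which fixed their direction. Among the 6 SR protein genes with a mean of at least 1 FPKM, 4 had a fitted difference above 0 and 2 below it, with a median of 0.39. Srsf2 encodes SC35, a core SR protein of nuclear speckles. Its level was 4.32, 5.53 and 6.87 FPKM in WT and 10.9, 11.6 and 15.4 FPKM in Lsm14b-KO libraries. All Lsm14b-KO libraries were above the highest WT library, with a difference of 1.05 (SE 0.26, 95% interval 0.46 to 1.64, limma adjusted p = 0.0263). The call was lost without WT replicates 1, 2 or 3 (limma adjusted p = 0.116, 0.0984 and 0.0569) and without Lsm14b-KO replicate 3 (limma adjusted p = 0.110). The gene lies at chromosome 11, 116849901 to 116853094, minus strand, where Mettl23 and Mfsd11 overlap it on the opposite strand. Whether fragments were counted by strand is not given in the sources used here, so reads of these genes may not be told apart.

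Srsf3, the smallest SR protein and the most abundant of the family in these oocytes, was 18.3, 23.8 and 20.6 FPKM in WT and 30.0, 32.1 and 31.7 FPKM in Lsm14b-KO libraries. These groups were apart, but the difference missed the threshold (0.57, SE 0.25, limma adjusted p = 0.129), and the gene has 4 near-identical copies. Srsf1, Srsf4 and Srsf6 were also higher without overlap, at differences of 0.54, 0.63 and 0.61, but all of them stayed under 1 FPKM in every WT library. Srsf4 was 0, 0.1 and 0 FPKM in WT and 0.510, 1.09 and 0.288 FPKM in Lsm14b-KO. Srsf10, which encodes a splicing repressor when dephosphorylated, overlapped between groups (5.77 ± 0.861 and 7.09 ± 1.27 FPKM, SD, n = 3 each), as did Srsf11. Srsf5 and Srsf7 had fitted differences below 0, of -0.25 and -0.36, and both turned positive under TPM scaling (0.31 and 0.12). Srsf7 was 3.82, 4.12 and 3.09 FPKM in WT and 4.5, 0.910 and 3.51 FPKM in Lsm14b-KO libraries, so its sign rested on Lsm14b-KO replicate 2 and was 0.10 without it.

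SR proteins are controlled by phosphorylation, and 5 of 8 listed kinase genes were tested. By limma 0 rose (6.38% of all tested genes) and 1 fell (15.2% of all tested genes). At an unadjusted p under 0.05, 0 rose (15.6% of all tested genes) and 1 fell (23.7% of all tested genes). Clk1, a nuclear kinase of SR proteins, was 103, 112 and 107 FPKM in WT and 40.0, 25.1 and 27.1 FPKM in Lsm14b-KO libraries. Its groups lay far apart (-1.81, SE 0.29, limma adjusted p = 0.00629), and the call was kept in each alternative run. Srpk1, a cytoplasmic SR protein kinase, was 1.61, 2.11 and 2 FPKM in WT and 1.72, 7.12 and 5.11 FPKM in Lsm14b-KO (0.83, limma adjusted p = 0.145). Its Lsm14b-KO replicate 1 lay within the WT range and the other replicates above it.

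**Figure D2:**
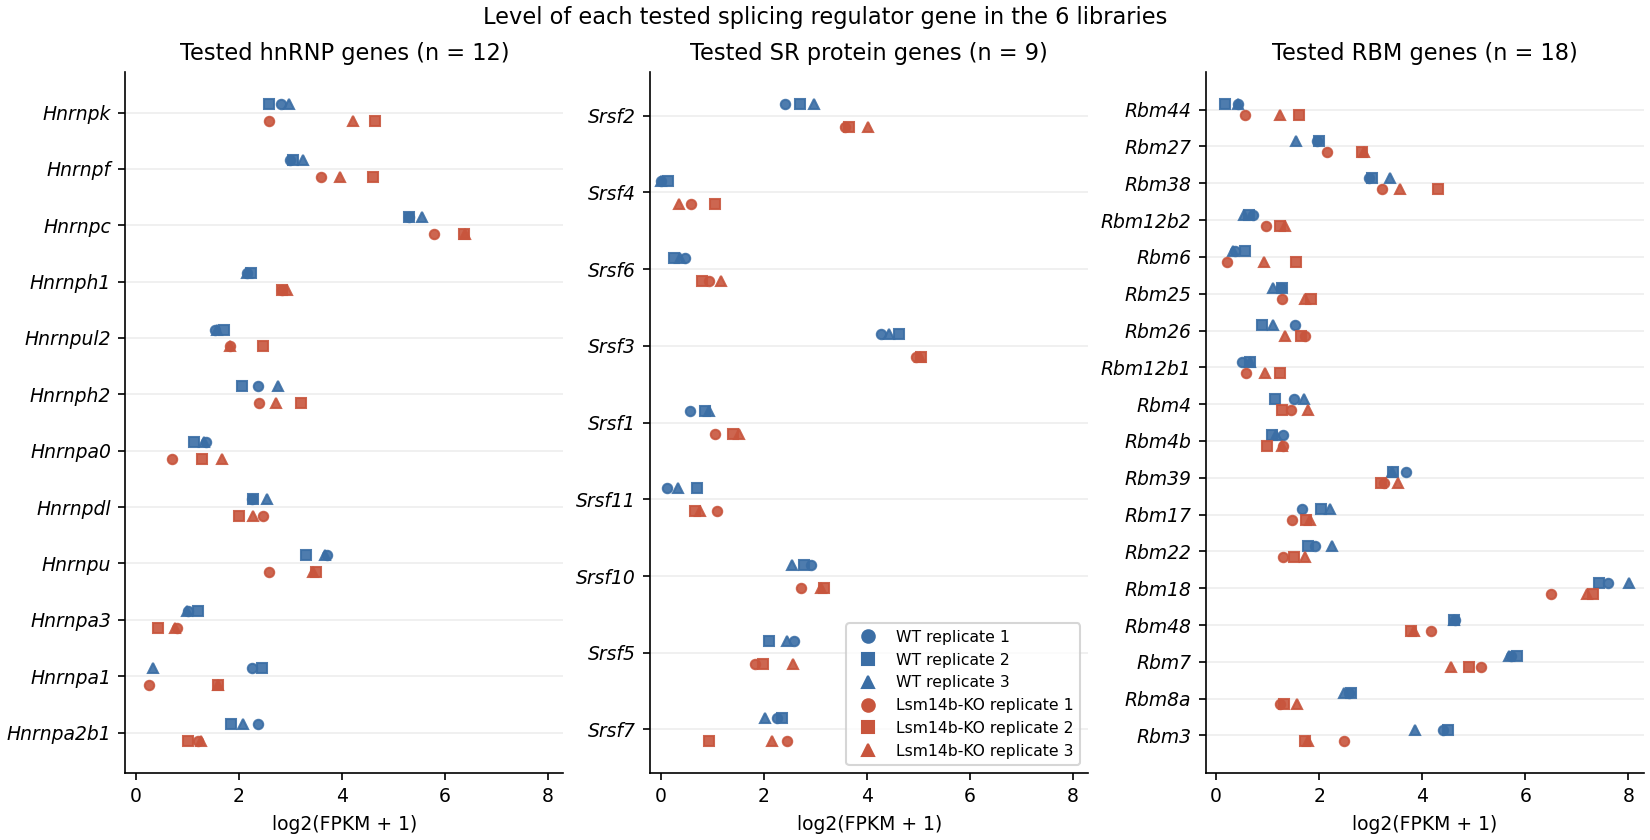
Level of the 39 tested genes on the log2(FPKM + 1) scale (horizontal axis) in each of the 6 libraries, by family, with WT above Lsm14b-KO on each line and genes ordered by their fitted difference. Rbm18 and Hnrnpc are the right-most genes of their families, and Lsm14b-KO replicate 1 (circles) lies nearest the WT mean in 21 of the 39 genes.

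The RBM genes had 18 of 40 tested, of which 0 rose (6.38% of all tested genes) and 2 fell (15.2% of all tested genes) by limma, the latter being Rbm3 and Rbm8a. At an unadjusted p under 0.05, 3 were higher (15.6% of all tested genes) and 4 lower (23.7% of all tested genes). Of those 3, Rbm12b2 and Rbm44 met the filter through Lsm14b-KO libraries only. The median of the 18 RBM genes was 0.02. Rbm18, an RBM gene of little-known function, was the most abundant of all 71 genes. It was 193, 172 and 259 FPKM in WT and 89.7, 158 and 146 FPKM in Lsm14b-KO libraries, groups that were separate by a narrow margin (-0.68, limma adjusted p = 0.171). The difference became 0.01 under TPM scaling and under quantile normalization. Mrrf overlaps Rbm18 on the opposite strand, and the deposited table gives both the same locus.

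Rbm7 encodes the RNA-binding subunit of the nuclear exosome targeting complex, which directs nuclear RNA to decay. It was 51.7, 56.0 and 50.4 FPKM in WT and 34.3, 28.9 and 22.7 FPKM in Lsm14b-KO libraries. No Lsm14b-KO library reached the WT range, and the difference lay just short of the threshold (-0.88, SE 0.27, limma adjusted p = 0.0546). It shrank to -0.20 under TPM scaling, -0.38 under quantile normalization and -0.46 under the length and GC correction. Rbm48, whose product acts in the splicing of minor, U12-type introns, was 24.0, 23.6 and 23.4 FPKM in WT and 17.1, 12.7 and 13.3 FPKM in Lsm14b-KO libraries (-0.70, limma adjusted p = 0.0750). Its WT libraries were nearly equal and its groups apart, but 3 genes overlap it on the opposite strand, and the difference was -0.04 under TPM scaling and -0.34 under quantile normalization. Rbm22, a spliceosomal zinc-finger protein gene, was also lower without overlap (2.99 ± 0.691 against 1.87 ± 0.417 FPKM, SD, n = 3 each, limma adjusted p = 0.145), with a difference of -0.47 that became 0.03 under TPM scaling.

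Other splicing factors of the RBM class differed little or overlapped. Rbm39, a U2AF-related factor, was 10.4 ± 1.29 FPKM in WT and 9.08 ± 1.29 FPKM in Lsm14b-KO, and Rbm17, a spliceosomal factor also known as SPF45, was 2.98 ± 0.735 and 2.22 ± 0.393 FPKM (SD, n = 3 each). Their fitted differences of -0.18 and -0.30 became 0.45 and 0.22 under TPM scaling. Rbm4 and Rbm4b, near-identical neighbours between which reads can be split, differed by 0.05 and 0.00, with 95% intervals of -0.49 to 0.59 and -0.44 to 0.44. Rbm25, a regulator of 5′ splice-site choice, was 1.33 ± 0.146 and 2.10 ± 0.606 FPKM (SD, n = 3 each), and Rbm38, which binds and stabilizes mRNA, was 6.87, 7.17 and 9.39 FPKM in WT and 8.28, 18.7 and 10.9 FPKM in Lsm14b-KO libraries (0.57, limma adjusted p = 0.216).

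Rbm27, Rbm44 and Rbm12b2 were higher in every Lsm14b-KO library than in any WT library without passing (limma adjusted p = 0.0680, 0.0817 and 0.0776). Rbm27, which acts in nuclear RNA decay, was 2.89, 2.98 and 1.91 FPKM in WT and 3.44, 6.08 and 6.28 FPKM in Lsm14b-KO. Rbm44, a germ-cell protein gene, was 0.350, 0.123 and 0.340 FPKM in WT and 0.475, 2.05 and 1.36 FPKM in Lsm14b-KO. Rbm12b2 shares near-identical sequence with Rbm12b1, which was 0.524 ± 0.0922 and 0.933 ± 0.435 FPKM (SD, n = 3 each) with overlap. Rbm44, Rbm12b2 and Rbm12b1 met the filter through Lsm14b-KO libraries only, so the group where they were high had selected them.

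**Figure D3:**
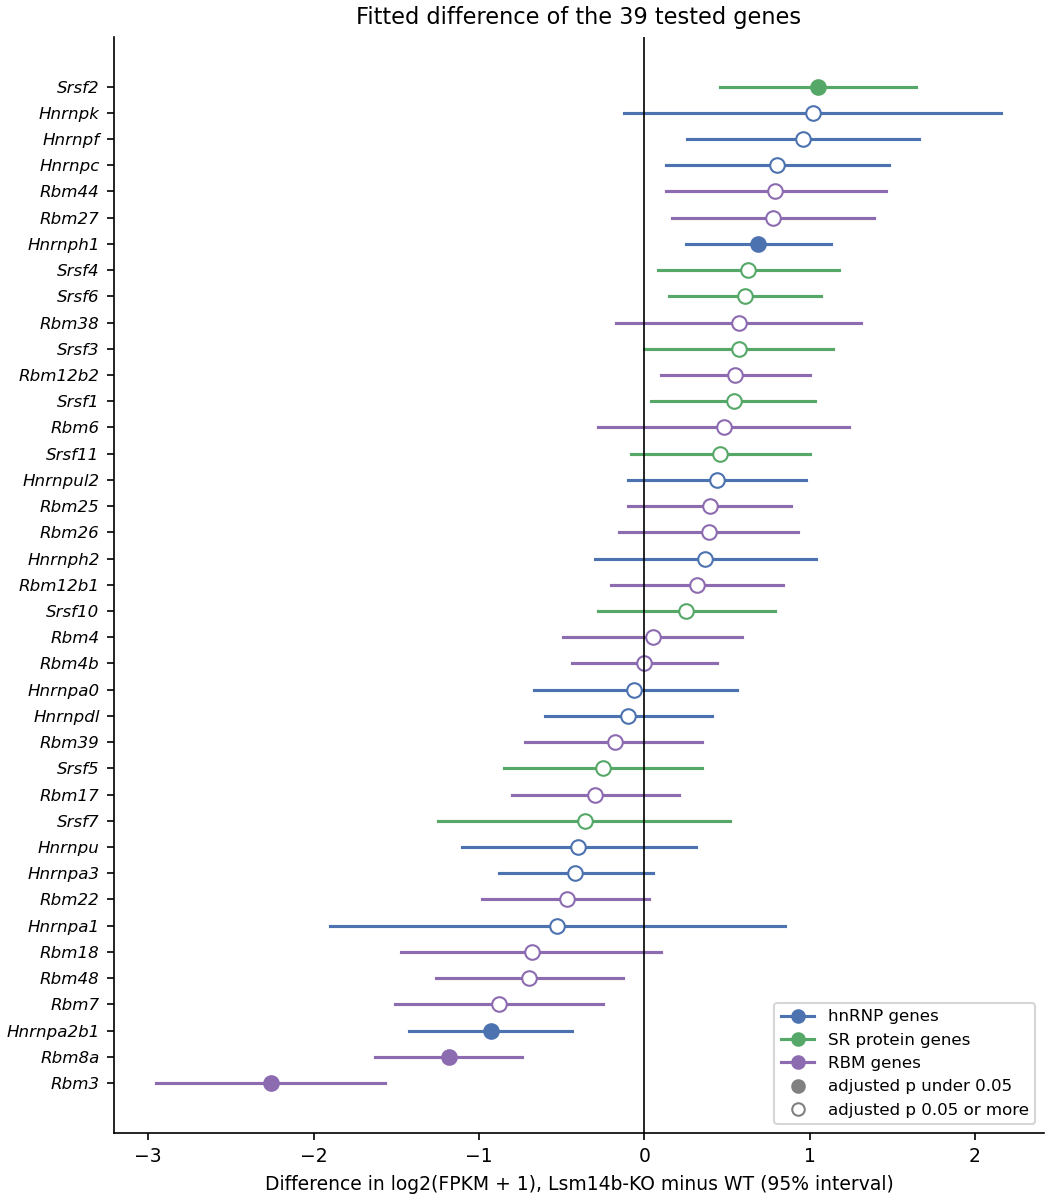
Fitted difference in log2(FPKM + 1), Lsm14b-KO minus WT, of the 39 tested genes with 95% intervals from limma, coloured by family and ordered by size. Filled points mark the 5 genes that passed, from Rbm3 at -2.26 to Srsf2 at 1.05, and the intervals of several open points, such as Hnrnpf (0.26 to 1.66), also leave out 0 because the threshold was set on adjusted p.

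Of the 39 tested genes, 23 had a fitted difference above 0 and 16 below it, and their median was 0.32 against -0.08 for all tested genes. This median cannot be read as a shift of the family, because the filter itself chose some of the genes. In all, 8 genes reached 1 FPKM in Lsm14b-KO libraries only, with a median of 0.54 (0.50 for all genes of that kind). In WT libraries only, 1 did so, at -0.42 (median of -0.54 for all genes of that kind). The 30 that reached it in both groups had a median of -0.03 (-0.13 for all genes of that kind). Among the 31 genes with a mean of at least 1 FPKM the median was 0.00, against -0.15 for all genes. Just inside the filter stood Srsf4, with a highest value of 1.09 FPKM, and just outside it Srsf9, with 0.983 FPKM.

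The Lsm14b-KO libraries did not move together. The median deviation of the 39 genes from the WT mean was 0.01 in Lsm14b-KO replicate 1, 0.42 in replicate 2 and 0.32 in replicate 3, where all tested genes gave -0.04, -0.14 and -0.07. The 39 include the 8 genes that met the filter through Lsm14b-KO libraries only, so these medians cannot be read as a shift of the family either. The 3 WT libraries lay between -0.01 and 0.01. Summed over the 71 genes, the level was 0.0369% to 0.0463% of all FPKM in the WT group, and 0.0328%, 0.0862% and 0.0670% for replicates 1, 2 and 3 of Lsm14b-KO, so replicate 1 lay under and the others over the WT range. The sums of the 71 genes themselves were 442.5 to 527.9 FPKM in WT and 337.5, 486.6 and 453.3 FPKM in these 3 libraries, so those of replicates 2 and 3 lay within the WT range. Their shares were over it because the FPKM of all genes summed to 1029728, 564671 and 676656 in the 3 libraries and to 1141324 to 1244182 in WT. Without Lsm14b-KO replicate 1, 13 genes rose (Hnrnpc, Hnrnpf, Hnrnph1, Hnrnpk, Rbm6, Rbm12b2, Rbm25, Rbm27, Rbm38, Rbm44, Srsf1, Srsf2 and Srsf3) and 5 fell (Hnrnpa2b1, Rbm3, Rbm7, Rbm8a and Rbm48) of 38 tested, where 18.3% of all tested genes rose and 28.7% fell. Of the 13, Rbm6, Rbm12b2, Rbm44 and Srsf1 reached 1 FPKM in Lsm14b-KO libraries only. Without Lsm14b-KO replicate 3, 0 rose and 2 fell, where all tested genes gave 321 calls, of which 38 rose. With each WT library left out in turn 0 rose by limma. Few genes of the whole table rose then: 68, 66 and 98 without WT replicates 1, 2 and 3. Scaling depth and this spread moved with the results, and their part was not tested.

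**Figure D4:**
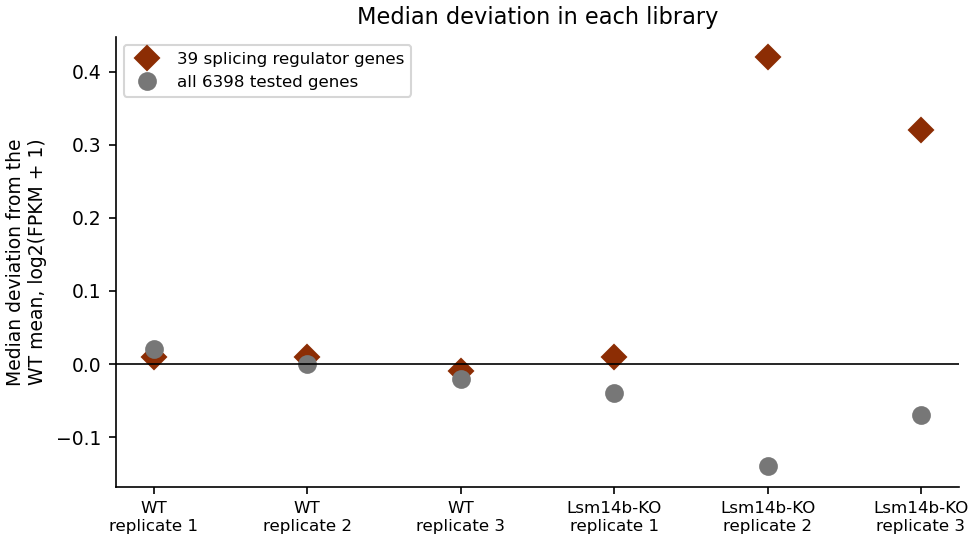
Median deviation from the WT mean on the log2(FPKM + 1) scale (vertical axis) in each of the 6 libraries, for the 39 tested splicing regulators (diamonds) and all 6398 tested genes (circles). Lsm14b-KO replicate 1 sits at 0.01 with the WT libraries, and replicates 2 and 3 sit at 0.42 and 0.32. The 39 include 8 genes that reached 1 FPKM in Lsm14b-KO libraries only, so the diamonds do not measure a shift of the family.

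The remaining 32 genes stayed under 1 FPKM in every library and were not tested, with a median highest value of 0.314 FPKM. Rbm11 and Srsf12 were listed at 0 in all 6 libraries. Hnrnpd, an AU-rich element binding protein gene of the D type, was 0.753, 0.522 and 0.339 FPKM in WT and 0.239, 0.122 and 0.0915 FPKM in Lsm14b-KO, 1 of 2 untested genes that were lower without overlap. The other was Rbm46os, and 4 untested genes, Hnrnpm, Rbm5, Rbm33 and Rbm42, were higher without overlap. These genes were named after their values were seen. The share of all untested genes without overlap was not counted, so these counts cannot be read as a result about the family. Hnrnpl, Hnrnpr, Hnrnpul1, Rbm10 and Rbm15, general splicing or RNA modification factors in other cells, were all at or under 0.302 FPKM.

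A further list of 43 splicing regulators outside these symbols had 41 in the table and 20 tested, of which 6 rose (6.38% of all tested genes) and 1 fell (15.2% of all tested genes). Of the 6, Khdrbs1 and Rbmxl1 reached 1 FPKM in Lsm14b-KO libraries only, as did Elavl1, Khsrp and Ptbp3 among the other tested genes. The median of the 20 was 0.50 against -0.08 for all tested genes, and for this reason it cannot be read as a shift of the list. Matr3, a nuclear matrix protein gene, was 8.89, 10.6 and 10.3 FPKM in WT and 31.2, 70.0 and 35.7 FPKM in Lsm14b-KO libraries (2.0, SE 0.34, limma adjusted p = 0.00798), with every Lsm14b-KO library far above WT, and it passed in each alternative run. Ptbp2, Rbmxl1, Esrp1, Pcbp2 and Khdrbs1 rose by 1.08, 0.97, 0.93, 0.75 and 0.71, and each of these calls was lost when any of the WT libraries or Lsm14b-KO replicate 2 or 3 was left out, with limma adjusted p of 0.0564 to 0.162. Rbpms, which encodes an RNA-binding protein of oocytes and muscle, fell by 1.16 (limma adjusted p = 0.0205) and was lost when any of the WT libraries or Lsm14b-KO replicate 3 was left out, at 0.0602 to 0.0944 (limma adjusted p), and under TPM scaling (-0.55, limma adjusted p = 0.143). Rbpms2, its paralog, was higher without overlap and did not pass (15.8 ± 2.34 against 25.8 ± 5.32 FPKM, SD, n = 3 each, limma adjusted p = 0.106).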

How the data were processed

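RNA-Seq of 6 libraries (WT and Lsm14b-KO FGOs, 3 each) was taken as FPKM that the authors deposited in 1 table of all genes. Per the labels, cDNA was amplified by Smart-seq2 and paired-end reads were used, and 2 different kits are named for library construction, KAPA Hyper Prep and NEBNext Ultra. Strand is not given in the sources used here. The submitters' processing notes name TopHat2 2.0.13, Cufflinks 2.2.1, Cuffnorm, Cuffdiff and the build mm10. The table also holds the authors' own fold changes, p-values and q-values, which were not used.

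Genes reaching 1 FPKM in at least 1 library (6398 of 24255) were fitted on log2(FPKM + 1) in limma 3.58.1 (R 4.3.3) with group as the only term and an intensity trend, with Benjamini-Hochberg adjustment over these genes and a threshold of 0.05. The script was tested on simulated data first. FPKM are not counts, so no count model was fitted. Fragments were estimated from the FPKM step of 1 fragment and a transcript length less 200 nt, and are approximate. The transcript was the longest with a RefSeq match, or the longest annotated where none had a match. Coordinates, overlaps and transcripts came from GENCODE vM21 on GRCm38. Near-identical copies were found with blastn 2.17.0+ as matches of 200 nt or longer with an identity of at least 95%. Symbols turned into dates by a spreadsheet numbered 27 and were left unnamed.

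The genes named were Lsm14b, every gene of the 71 that passed, and the 5 of highest mean FPKM among Hnrnp, Srsf and Rbm symbols. Further genes were named to account for the families and lists, after their values were seen. The members and lists were chosen with earlier results of these data known. Alternatives were a pseudocount of 0.1, no filter, a mean of at least 1 FPKM, TPM scaling, quantile normalization, a length and GC correction, no intensity trend, the replicate block and each library left out. A filter of at least 10 fragments in 3 libraries was added after seeing the data.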

Additional observations from a re-analysis of the deposited data

How the results depend on the processing

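The fall of Lsm14b held under all 15 alternatives. The median of all tested genes was -0.08 as deposited, 0.43 after TPM scaling, 0.07 after quantile normalization and 0.10 after the length and GC correction, and the share of calls that were higher in Lsm14b-KO was 29.5%, 64.7%, 42.4% and 44.6%. The number of splicing regulators that rose, 2 as reported, was 7, 5 and 6 under those 3 scalings. It was 0 with no filter, 5 with at least 10 fragments in 3 libraries, and 0 to 13 with 1 library left out. Of all tested genes, 408 rose as reported and 900, 540 and 608 under those 3 scalings. With no filter 178 rose, with at least 10 fragments 518, and with 1 library left out 38 to 1152. Both counts moved the same way, so the change in the first is not a result about splicing regulators alone. The number of splicing regulators that fell, 3 as reported, was 1 after TPM scaling and 2 to 5 with 1 library left out. The 5 were without Lsm14b-KO replicate 1, where 1800 of all tested genes fell, against 975 as reported. Their median of 0.32 became 0.06 with no filter, 0.00 at a mean of at least 1 FPKM, 0.59 after TPM scaling, 0.05 with at least 10 fragments, and 0.16 to 0.35 with 1 library left out. All tested genes gave 1383 calls, 720 with no filter and 321 to 2952 with 1 library left out. Of the genes named by rule, the fitted difference changed sign for Hnrnpu (0.24, TPM), Srsf5 (0.31, TPM, and 0.15, length and GC), Srsf7 (0.12, TPM, and 0.10 without Lsm14b-KO replicate 2, in a range of -0.67 to 0.10 with 1 library left out) and Rbm18 (0.01, TPM and quantile). Among the other tested genes it changed sign in 1 to 6 of the 15 alternatives for Hnrnpa0 (2), Hnrnpdl (3), Rbm4 (3), Rbm4b (6), Rbm17 (1), Rbm22 (1) and Rbm39 (2), none of which passed in any alternative. Apart from the settings that test fewer or more genes or fewer libraries, the cause was not tested.

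Libraries with the same replicate number did not deviate together: the correlation of their deviations was 0.19, -0.128 and 0.018 for numbers 1, 2 and 3, so the numbers are not taken as pairs. With the replicate block 1244 genes passed, of which 1 splicing regulator rose and 3 fell, and Hnrnph1 was the call that was lost (adjusted p = 0.0782 by limma). At the approximate scaling depth of 3860000 to 8360000 fragments, the 32 untested genes rested on few fragments in most libraries.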
